A study of Mus musculus with 35 samples.

Results

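Cohesin is the ring that holds sister chromatids together, and the transcripts of 10 of its subunits and regulators (Esco1, Esco2, Smc1a, Smc1b, Smc3, Rad21, Rec8, Stag3, Sgo2a and Wapl) were followed through 35 samples of mouse zygotes and early 2-cell (2C) embryos. These are 10 of the 24480 genes in the count table. They were chosen by gene name with measured values of these samples already known, and which contrast weighed in the choice was not recorded, so that no p-value given for them is independent evidence. In addition, Sgo2a was read from the row with its older name, Sgol2a. All embryos were wild type C57BL/6NRj, and RNA was collected about 5-6 h after injection (of both blastomeres in 2C embryos) of either Kdm5b-yfp mRNA or the water used to elute it. KDM5B is a demethylase of lysine 4 of histone H3 (H3K4), and it was made here with a fluorescent tag. The groups were 10 water zygotes and 10 Kdm5b zygotes, each a single zygote collected 17 h after ovulation, and 9 water 2C and 6 Kdm5b 2C samples. The latter were taken between 5.5 and 8 h from division. Among them, 3 in the water group and 1 in the Kdm5b group were pools of 2 or 3 embryos that had kept only 1 intact blastomere each, and the others were single intact embryos. The 2C embryos came from zygotes that had been frozen and thawed, and libraries of zygotes and of 2C embryos were made on separate days, so that stage, cryopreservation and library day cannot be told apart. As the control was water, an effect of KDM5B protein cannot be told apart from an effect of injected mRNA as such.

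In the cohesin ring, the coiled-coil proteins SMC1 and SMC3 are closed by a kleisin, and a STAG protein is bound to the kleisin. Mitotic cells use SMC1A, SMC3, RAD21 and STAG1 or STAG2, whereas meiotic cells also use SMC1B, the kleisin REC8 and STAG3, and the oocyte keeps its chromosomes together with rings loaded long before ovulation. ESCO1 and ESCO2 acetylate SMC3, which locks the ring, WAPL opens it, and shugoshins shield it from cleavage by separase at the centromere.

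Gene counts added up to between 11627845 and 17797581 in a zygote and between 8705584 and 13117592 in a 2C sample. Kdm5b, as the injected gene, took 2.30% to 10.45% of the counts in Kdm5b zygotes and 8.27% to 15.8% in Kdm5b 2C samples. In the water samples it took at most 0.0190%, and its row was removed before any normalisation. All 8 oocyte markers had counts in every group, with summed levels of 9893 to 12610 TPM (a length-scaled share of transcripts) in zygotes and 6505 to 11500 TPM in 2C samples. The summed level of 6 markers of the 2C stage was 3.82 to 55.45 TPM in zygotes and 232 to 1010 TPM in 2C samples. Cumulus cell markers summed to no more than 18.0 TPM in any sample, with Ptx3 at 0 in all water 2C samples and Inhba at 0 in all Kdm5b 2C samples. TPM values were made here from counts per base of exon, with a fixed sum over the genes of each sample once Kdm5b was taken out. This unit allows levels of different genes to be compared, but gives a share of the RNA and not an amount per embryo. In addition, a pool holds a different number of cells, and fewer cells and less RNA per cell cannot be told apart.

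The 10 transcripts spanned a wide range of levels in water zygotes, and the mitotic kleisin and the acetyltransferases stood far above the meiotic subunits. Wapl was the most abundant, with a median of 479.6 TPM (423.5 to 529 TPM, n = 10). Rad21 (median 307 TPM), Esco2 (292 TPM) and Esco1 (268 TPM) followed, with ranges that overlapped between neighbours. Smc1a (154 TPM) and Smc3 (106.5 TPM) came next and also overlapped each other. Sgo2a (57.2 TPM), Smc1b (41.3 TPM), Stag3 (12.3 TPM) and Rec8 (0.163 TPM) then followed without overlap between neighbours. In water 2C samples Wapl remained first and Rec8 last, whereas Esco1 stood second and Smc3 had dropped to the seventh place. There, from Smc1a through Sgo2a, Smc3 and Stag3 to Smc1b, the range of each gene overlapped that of the next, and Rec8 lay below that of Smc1b. None of the 10 genes shares an exon with another gene in the annotation used for counting, and the counting took strand into account.

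**Figure D1:**
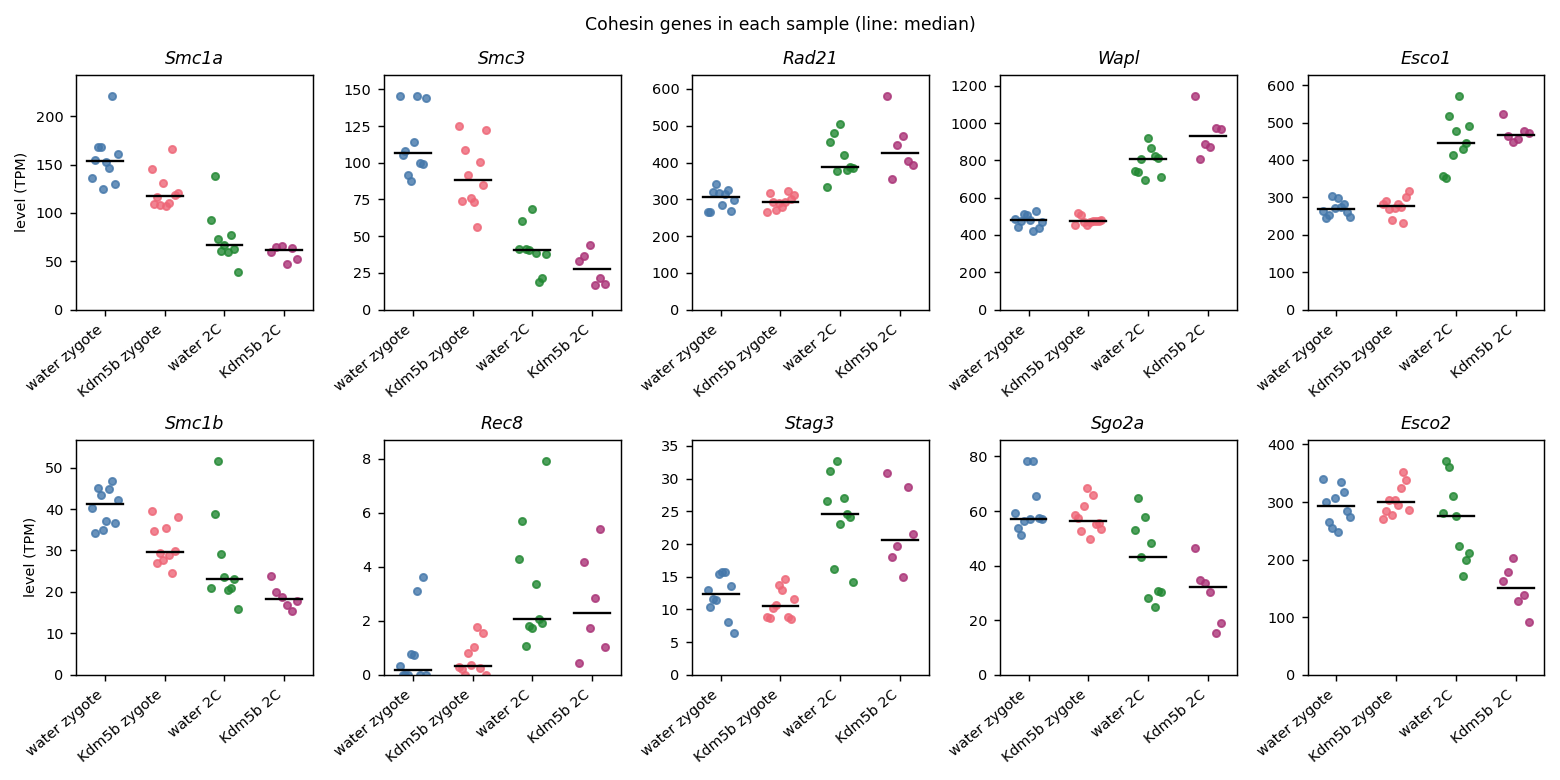
Level of each of the 10 cohesin genes in every sample (vertical axes in TPM from 0, a separate scale for each gene, groups on the horizontal axes, 1 point per sample, line at the group median). Smc1a, Smc3 and Smc1b sit lower in 2C samples than in zygotes, while Rad21, Wapl, Esco1, Stag3 and Rec8 sit higher, and Esco2 is lowest in Kdm5b 2C samples.

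The transcripts of the mitotic ring differed in direction between the stages. Differences between stages in the 10 genes are given as a description, as these values were known when the genes were chosen, and no p-value is printed for them. Calls are only counted, to set them beside the share of all genes. All log2 fold changes with their standard errors (SE) come from edgeR. Smc3 (chromosome 19, from 53600396 to 53645831 on GRCm38), the subunit common to mitotic and meiotic rings, ranged from 87.3 to 146 TPM in water zygotes (median 106.5 TPM, n = 10) and from 19.05 to 68.5 TPM in water 2C samples (median 40.6 TPM, n = 9). The groups did not overlap, and the log2 fold change of 2C over zygote was -1.40 ± 0.18 (SE). Of the water 2C samples, pools had 19.05 to 38.0 TPM and single intact embryos 38.4 to 68.5 TPM. The X-linked Smc1a, which encodes the mitotic partner of SMC3, ranged from 124 to 221 TPM in water zygotes (median 154 TPM) and from 38.7 to 138 TPM in water 2C samples (median 66.3 TPM). Here 8 of 9 2C samples lay below all zygotes, with a log2 fold change of -0.996 ± 0.16 (SE). Rad21, the mitotic kleisin on chromosome 15, ranged the other way, from 264 to 342 TPM in water zygotes (median 307 TPM) and from 333 to 505 TPM in water 2C samples (median 387 TPM). Of the 2C samples, 8 of 9 lay above all zygotes (log2 fold change 0.55 ± 0.08, SE). The balance between kleisin and SMC transcripts was therefore not the same at the 2 stages, with a median of 2.615 Rad21 transcripts for each Smc3 transcript in water zygotes (range 1.82 to 3.72) and 10.1 in water 2C samples (range 7.37 to 19.9). In Kdm5b samples this ratio was 3.38 in zygotes (range 2.13 to 5.23) and 18.1 in 2C samples (range 9.77 to 27.9). The median ratio of Smc1a to Smc3 was 1.38 in water zygotes and 1.76 in water 2C samples, with overlapping ranges.

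Meiotic subunits did not move as a block either. Smc1b (chromosome 15, from 85064689 to 85131957), the meiotic form of SMC1, ranged from 34.3 to 46.8 TPM in water zygotes (median 41.3 TPM) and from 16.0 to 51.5 TPM in water 2C samples (median 23.15 TPM). While 7 of 9 2C samples lay below all zygotes, 1 lay above all of them (log2 fold change -0.50 ± 0.17, SE). Stag3, the meiotic STAG protein on chromosome 5, ranged from 6.40 to 15.7 TPM in water zygotes (median 12.3 TPM) and from 14.2 to 32.7 TPM in water 2C samples (median 24.6 TPM). All but 1 of the 9 2C samples exceeded every zygote, with a log2 fold change of 1.09 ± 0.17 (SE). Rec8, a meiotic kleisin gene on chromosome 14, was close to the limit of detection. In water zygotes it had 0 to 37 counts (median 2.00) and no count in 5 of 10 zygotes, and in water 2C samples it had 8 to 59 counts (median 15.0, n = 9). A count of 0 allows up to 3 counts, which corresponds to 0.244 to 0.341 TPM in these zygotes. Such limits hold for counting error alone, because PCR copies of a fragment are not separate molecules. Its level was 0 to 3.64 TPM in water zygotes (median 0.163 TPM) and 1.06 to 7.91 TPM in water 2C samples (median 2.05 TPM), and the ranges overlapped, with water zygotes 7 and 9 (37 and 32 counts) inside the range of 2C samples. The fitted log2 fold change was 2.05 ± 0.84 (SE), and it ranged from 1.75 without water 2C sample 9 to 2.66 without water zygote 9.

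Set against their mitotic counterparts, meiotic subunits held a minor share at both stages. Rec8 transcripts were a median of 0.0615% of the Rec8 and Rad21 total in water zygotes (0% to 1.34%, n = 10) and 0.538% in water 2C samples (0.221% to 2.02%, n = 9). Smc1b made up a median of 21.0% of the Smc1a and Smc1b total in water zygotes (17.5% to 23.4%) and 26.2% in water 2C samples (18.4% to 41.5%). For Stag3, the median share of the total of Stag1, Stag2 and Stag3 was 15.3% in water zygotes (10.1% to 19.4%) and 19.6% in water 2C samples (15.65% to 26.5%). All 3 shares had a higher median in 2C samples, and the ranges of the stages overlapped for each of them. Rad21l, which encodes another meiotic kleisin, is outside the 10 genes and these shares. Its median was above that of Rec8 and went the other way between stages. It was 5.27 TPM in water zygotes (3.02 to 12.6 TPM, 25 to 108 counts) and 2.99 TPM in water 2C samples (0 to 7.22 TPM, 0 to 44 counts), with overlapping ranges.

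For the core subunits that moved apart between stages, promoter sequence was available from RefSeq (GRCm38.p6), which had an entry for 7 of the 10 genes (8 windows) and none used here for Esco1, Esco2 or Rad21. The 250 bases before the start were searched on both strands for TTCCCGC (an E2F-type motif), CACGTG (an E-box) and CCAAT, which occur in 3.82%, 6.02% and 33.85% of all 32851 such windows. TTCCCGC was found only in the window of Smc1b and CACGTG only in that of Stag3, while CCAAT occurred in those of Smc1a, Smc1b, Rec8, Stag3 and Wapl and in 1 of 2 windows of Sgo2a. The Smc3 window held none of the 3. They are printed 5′ to 3′ in the direction of the gene to set mitotic beside meiotic subunits, with matches in capitals (CCAAT on the other strand reads as its reverse complement), and no printed match overlaps another. For Smc1a and Smc1b the far part of the window, which holds exon bases of the neighbouring genes Ribc1 and Ribc2, was left out, and for Rec8 the bases within the RefSeq gene record were left out, so that some matches of these windows are not shown. The Stag3 window precedes a start that lies inside its gene record and holds no exon bases.
Smc1a promoter, chrX:152016296-152016427, plus strand: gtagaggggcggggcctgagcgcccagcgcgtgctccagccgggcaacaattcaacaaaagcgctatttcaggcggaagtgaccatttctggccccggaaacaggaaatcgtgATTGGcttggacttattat
Smc3 promoter, chr19:53600146-53600395, plus strand: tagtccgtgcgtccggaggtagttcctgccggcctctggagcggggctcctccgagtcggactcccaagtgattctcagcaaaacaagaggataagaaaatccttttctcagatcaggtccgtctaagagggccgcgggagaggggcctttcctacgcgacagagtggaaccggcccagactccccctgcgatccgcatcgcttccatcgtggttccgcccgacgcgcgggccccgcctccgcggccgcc
Smc1b promoter, chr15:85131958-85132098, minus strand: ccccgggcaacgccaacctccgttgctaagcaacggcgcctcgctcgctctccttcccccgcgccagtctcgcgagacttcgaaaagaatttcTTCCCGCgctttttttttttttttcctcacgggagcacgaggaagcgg
Rec8 promoter, chr14:55617916-55618001, plus strand: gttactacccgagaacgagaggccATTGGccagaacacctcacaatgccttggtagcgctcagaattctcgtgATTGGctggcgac
Stag3 promoter, chr5:138280259-138280508, plus strand: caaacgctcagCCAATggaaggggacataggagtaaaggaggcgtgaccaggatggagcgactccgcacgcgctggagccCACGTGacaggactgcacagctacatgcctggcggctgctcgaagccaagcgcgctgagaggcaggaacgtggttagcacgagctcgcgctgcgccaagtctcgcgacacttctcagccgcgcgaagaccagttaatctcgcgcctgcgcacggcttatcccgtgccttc
Windows of Smc3, Stag3 and Smc1b were rich in CpG, with 26, 26 and 25 CpG dinucleotides in 250 bases against a median of 6 over all windows, whereas the Smc1a window held 16 and that of Rec8 held 10. Matches to these letters are a description and show no binding.

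The regulators included the most abundant of the 10 transcripts. Wapl (chromosome 14), whose protein releases cohesin from chromatin, ranged from 423.5 to 529 TPM in water zygotes (median 479.6 TPM) and from 695 to 921 TPM in water 2C samples (median 809 TPM). The groups did not overlap (log2 fold change 0.82 ± 0.07, SE). Esco1 (chromosome 18), the acetyltransferase that acts through the cell cycle, ranged from 246 to 302 TPM in water zygotes and from 352 to 571 TPM in water 2C samples, again without overlap (medians 268 and 445.5 TPM, log2 fold change 0.83 ± 0.09, SE). Esco2 (chromosome 14, from 65819027 to 65833969), which acetylates SMC3 during DNA replication, behaved differently from Esco1. It ranged from 248.7 to 340 TPM in water zygotes (median 292 TPM) and from 172 to 371 TPM in water 2C samples (median 276.5 TPM), so that the 2C range enclosed that of zygotes and the log2 fold change was -0.05 ± 0.12 (SE). Sgo2a (chromosome 1), the shugoshin that protects centromeric cohesin in oocyte meiosis, ranged from 51.4 to 78.3 TPM in water zygotes and from 25.0 to 64.65 TPM in water 2C samples. The ranges overlapped, with 6 of 9 2C samples below all zygotes (medians 57.2 and 43.1 TPM, log2 fold change -0.45 ± 0.15, SE). Of the water 2C samples, pools had 25.0 to 30.6 TPM of Sgo2a and single intact embryos 28.2 to 64.65 TPM.

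Differences between the stages in Kdm5b samples had the same signs for all 10 genes, although the value of Esco2 in water samples lay within its SE of 0. The Kdm5b comparison shares no sample with that of water samples, but both carry the library days and the freezing of 2C embryos. Beyond Esco2, the log2 fold changes of Kdm5b 2C over Kdm5b zygote ranged from -1.60 ± 0.20 (SE) for Smc3 to 2.13 ± 0.71 (SE) for Rec8. For Esco2 the value was -0.92 ± 0.11 (SE), and all 6 Kdm5b 2C samples lay below all 10 Kdm5b zygotes. Wapl, at 1.08 ± 0.07 (SE), was past the threshold of 1 here and not in water samples. When both criteria were applied (adjusted p below 0.05 and a log2 fold change above 1 in either direction), Rec8 and Stag3 were higher and Smc3 was lower in water 2C samples (3 of 10), where 9.2% of all genes tested were called higher and 13.0% lower. The call of Rec8 was kept in 7 of 19 fits with 1 sample left out, and Smc1a missed the fold by less than its SE. By adjusted p alone, 5 of the 10 genes were higher and 4 lower, against 26.8% and 25.4% of all genes tested. Under other settings of the fit, this call was kept in 7 of 8 for Smc1b, 7 of 8 for Sgo2a and 5 of 7 for Rec8. In Kdm5b samples Rec8, Stag3 and Wapl were called higher and Smc3 lower by both criteria, where 10.5% and 16.0% of all genes tested were called. As values of these groups were known when the genes were chosen, nothing is read from these counts. The median log2 fold change over the 10 genes was 0.25 in water samples, beside 0.0225 over all genes tested.

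A further 27 genes of the cohesin pathway were then listed by their function to see where the 10 stood. Earlier results of these data were known by then. The p-values of these genes, and of the related complexes below, are therefore not independent evidence. In water 2C samples against water zygotes, 2 of the 27 were called higher by both criteria and 4 lower (edgeR quasi-likelihood test, Benjamini-Hochberg adjustment), where 9.2% and 13.0% of all genes tested were called. By adjusted p alone these numbers were 7 and 11, against 26.8% and 25.4% of all genes tested. Their median log2 fold change was -0.32, beside 0.0225 over all genes tested. Among genes that lock or open the ring, Pds5a, a scaffold for both WAPL and the acetyltransferases, rose by 1.07 ± 0.14 (SE, log2, adjusted p = 5.34e-07), and its relative Pds5b rose by 0.79 ± 0.13 (SE, log2, adjusted p = 1.89e-05). Cdca5, which encodes sororin, the antagonist of WAPL, fell by 0.92 ± 0.17 on the log2 scale (SE, adjusted p = 6.58e-05), from a median of 350.2 TPM in water zygotes to 179 TPM in water 2C samples. Nipbl, the loader of cohesin, had 184 TPM at the earlier stage and 183 TPM at the later (log2 fold change 0.10 ± 0.08, SE, adjusted p = 0.286). Of the mitotic STAG genes, Stag1 rose by 0.80 ± 0.11 (SE) and Stag2 by 0.40 ± 0.11 (SE) on the log2 scale, with adjusted p = 8.24e-07 and 0.00288. Ctcf, which anchors cohesin loops, rose by 0.54 ± 0.12 (SE, log2, adjusted p = 0.000476).

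Of the genes for protection and cleavage of cohesin, those past the test were lower at the 2C stage. Meikin, which works with shugoshin and REC8 at meiotic kinetochores, fell by 2.19 ± 0.35 on the log2 scale (SE, adjusted p = 8.32e-06), from a median of 40.7 TPM to 9.60 TPM. Sgo2b, the paralogue of Sgo2a, fell by 2.21 ± 0.34 (SE, log2, adjusted p = 6.52e-06) and Plk1, a kinase that removes cohesin from chromosome arms, by 1.42 ± 0.19 (SE, log2, adjusted p = 5.1e-07). Reads that map to both of 2 paralogues such as Sgo2a and Sgo2b may be lost in counting, and the values of these genes are less certain for that reason. The shugoshin of mitosis, Sgo1, had a log2 fold change of 0.12 ± 0.11 (SE, adjusted p = 0.396), and Pttg1, which encodes securin, of -0.02 ± 0.16 (SE, adjusted p = 0.930). Among replication factors, the helicase gene Ddx11 fell by 1.54 ± 0.19 (SE, log2, adjusted p = 2.4e-07). Chtf8, a subunit of the clamp loader that works in cohesion, rose by 2.00 ± 0.53 (SE, log2, adjusted p = 0.00244), although its counts ranged from 0 to 130 in water 2C samples.

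**Figure D2:**
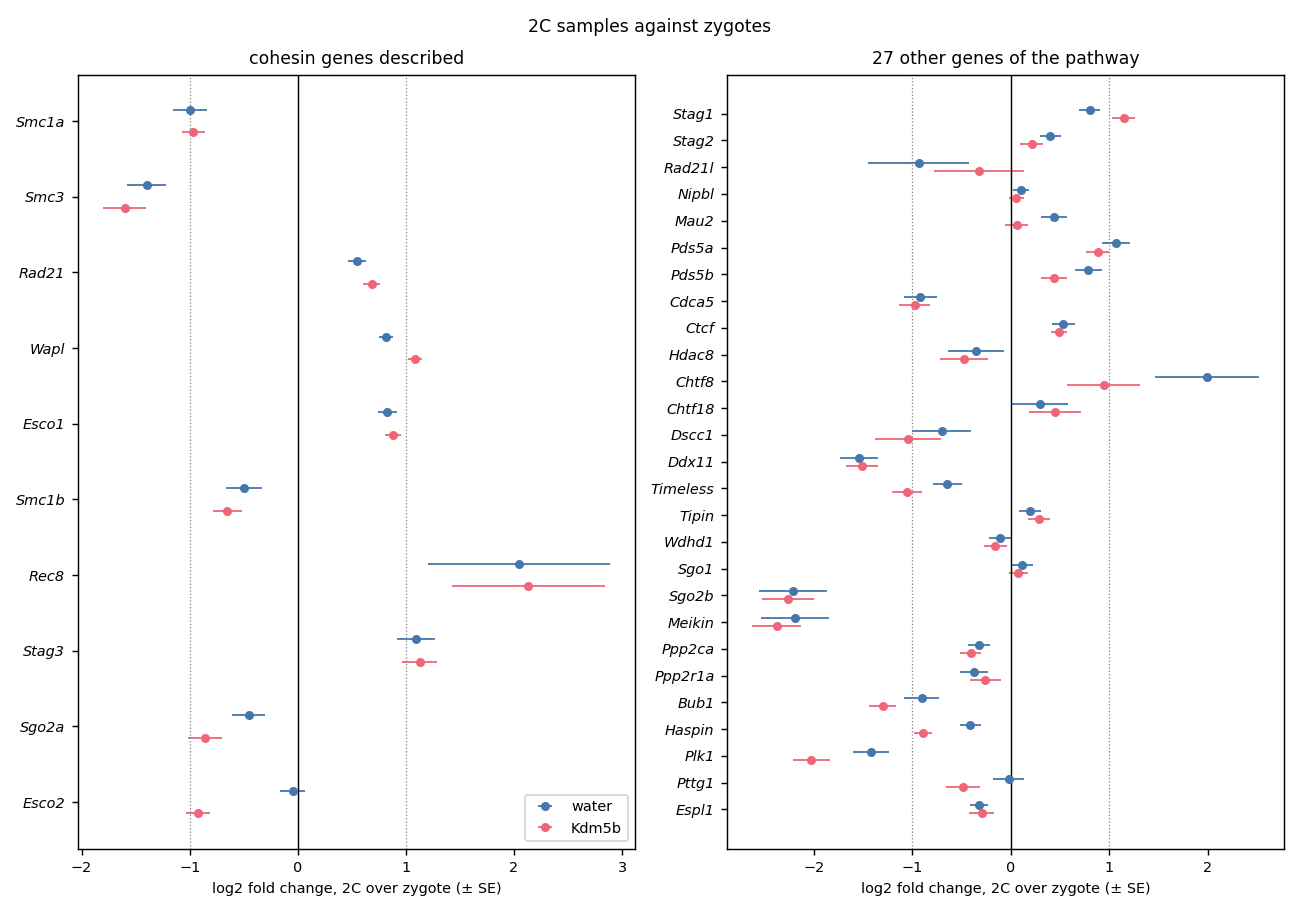
Log2 fold change of 2C samples over zygotes (horizontal axes, bars ± SE, dotted lines at the threshold of 1) for the 10 cohesin genes and 27 other genes of the pathway, in water samples and in Kdm5b samples. Esco2 is the gene of the left panel at which the values stand farthest apart, at -0.05 in water samples and -0.92 in Kdm5b samples.

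Related complexes were counted for comparison, beside 9.2% of all genes tested called higher and 13.0% called lower in water 2C samples by both criteria. By adjusted p alone these shares were 26.8% and 25.4%. Of 8 condensin genes, 3 were called lower and 0 higher in water 2C samples by both criteria (edgeR, Benjamini-Hochberg), with a list median of -0.53, led by Ncapg at -2.31 ± 0.17 (SE, log2, adjusted p = 5.49e-11) and Ncaph at -1.99 ± 0.17 (SE, log2, adjusted p = 3.96e-10). By adjusted p alone, 2 condensin genes were higher and 4 lower. Of 9 genes of SMC5/6, the third SMC complex, 8 were tested, and 3 were called lower and 0 higher by both criteria, with a list median of -0.55 and with Slf1 at -1.40 ± 0.17 (SE, log2, adjusted p = 1.61e-07) and Nsmce2 at -1.37 ± 0.14 (SE, log2, adjusted p = 1.07e-08) first. By adjusted p alone, 2 genes of SMC5/6 were higher and 4 lower. The 2 higher ones, named after their values were seen, were Smc6, which encodes a core subunit (0.91 ± 0.08, SE, log2, adjusted p = 6.9e-10), and Slf2 (0.54 ± 0.09, SE, log2, adjusted p = 1.2e-05). A last list held 10 genes of meiotic chromosomes, for the axis on which REC8 and STAG3 rings sit, the synaptonemal complex and recombination. Of these, 8 were tested, and 3 were called higher and 0 lower by both criteria, with a list median of 0.55. By adjusted p alone, 5 were higher and 0 lower. These were led by Hormad1 at 2.56 ± 0.45 (SE, log2, adjusted p = 2.95e-05), from a median of 2.38 TPM in water zygotes to 17.8 TPM in water 2C samples, and by Sycp1 at 1.27 ± 0.17 (SE, log2, adjusted p = 1.03e-06).

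The next question was whether injection of Kdm5b mRNA altered these transcripts. In zygotes, none of the 9 genes that could be tested was called by both criteria (edgeR, Benjamini-Hochberg over all genes tested), where 0.00838% of all genes tested were called. By adjusted p alone 0 of the 9 were called, where 2 of 11933 genes tested were higher and 14 lower. An unadjusted p under 0.05 was found for 3 of the 9, and for 10.3% of all genes tested. These 3 were the SMC subunits, mitotic and meiotic alike. Smc1b ranged from 24.6 to 39.5 TPM in Kdm5b zygotes (median 29.6 TPM, n = 10), beside 34.3 to 46.8 TPM in water zygotes, and all 10 lay below the water median (log2 fold change -0.35 ± 0.09, SE, edgeR adjusted p = 0.104). Smc1a ranged from 107 to 166 TPM in Kdm5b zygotes (median 117 TPM), with 7 of 10 below all water zygotes (log2 fold change -0.33 ± 0.09, SE, edgeR adjusted p = 0.112). For Smc3 the range was 56.2 to 125 TPM (median 88.02 TPM), with 5 of 10 below all water zygotes (log2 fold change -0.31 ± 0.12, SE, edgeR adjusted p = 0.354). DESeq2 gave Smc1b an adjusted p of 0.0186 and Smc1a one of 0.0231, when 0.687% of all genes tested were lower by its adjusted p alone, and Smc3 one of 0.289. Smc1a passed the edgeR threshold when Kdm5b zygote 8 was left out (adjusted p = 0.0495), and in the fit of all 35 samples the 3 genes had an adjusted p of 1.00. Of the condensin genes, Smc4, which was chosen after its value was seen, fell by 0.815 ± 0.14 on the log2 scale (SE, edgeR adjusted p = 0.00803) in Kdm5b zygotes.

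The other cohesin genes in zygotes had smaller differences. Rad21, Wapl, Esco1, Esco2, Sgo2a and Stag3 had log2 fold changes between -0.14 and 0.06, with edgeR adjusted p-values from 0.794 to 0.959. Rec8 was below the filter on low counts and had 0 to 19 counts in Kdm5b zygotes (median 3.5). Its median level was 0.325 TPM in Kdm5b and 0.163 TPM in water zygotes, whereas the fold change without a filter was -0.43 ± 0.85 (SE, log2, edgeR adjusted p = 0.900), so that median and fit differ in sign and no difference was detectable at this depth. None of the 27 other pathway genes was called in zygotes (edgeR), by both criteria or by adjusted p alone. Of all 11933 genes tested, 2 were higher and 14 lower by adjusted p alone. An unadjusted p under 0.05 was found for 4 of the 27 (10.3% of all genes tested).

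**Figure D3:**
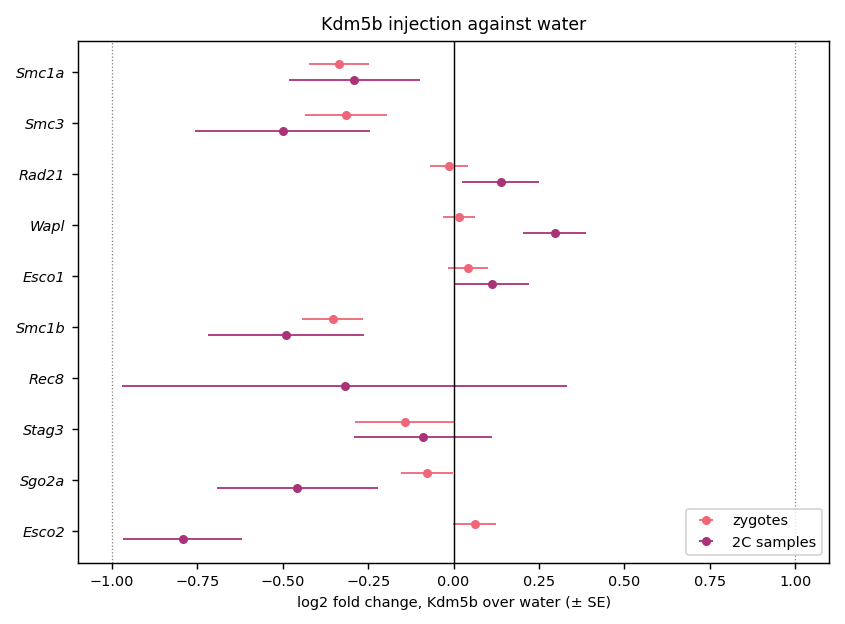
Log2 fold change of Kdm5b over water samples (horizontal axis, bars ± SE, dotted lines at the threshold of 1) for the 10 cohesin genes in zygotes and in 2C samples, with Rec8 not tested in zygotes. The SMC subunit genes lie below 0 at both stages, and Esco2 lies at 0.06 in zygotes and -0.79 in 2C samples.

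Of the 10 genes in 2C samples, Esco2 had the largest difference relative to its SE. Its level in water 2C samples was 280.5, 371, 360.1, 310, 276.5 and 223 TPM in single intact embryos and 172, 199.9 and 211 TPM in pools. In Kdm5b 2C samples it was 163, 178, 203, 128 and 138 TPM in single intact embryos and 90.9 TPM in the pool. Single intact embryos of the 2 groups thus did not overlap, and the pools were lower than the single embryos in both groups. Over all samples the groups overlapped, with 4 of 6 Kdm5b samples below all 9 water samples. The log2 fold change was -0.79 ± 0.17 (SE, edgeR, unadjusted p = 0.000159, adjusted p = 0.108), a level 1.73-fold lower in Kdm5b 2C samples. None of the 10 genes was called by edgeR, by both criteria or by adjusted p alone. Of all genes tested, 0.00817% were called by both criteria, and by adjusted p alone 3 of 12244 were lower and 0 higher. An unadjusted p under 0.05 was found for 3 of the 10, and for 9.41% of all genes tested. The median log2 fold change over the 10 genes was -0.30, with 7 of 10 below 0, beside -0.0028 over all genes tested.

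The call for Esco2 in 2C samples depended on the fit. The adjusted p was 0.00219 with DESeq2, when 0.702% of all genes tested were lower by its adjusted p alone, 0.0003015 with all 35 samples in a single edgeR fit, and 0.00723 with the group of 8 consecutive library index numbers as a covariate (log2 fold change -0.97 ± 0.17, SE). By adjusted p alone, the single fit called 331 of 13778 genes tested lower and 197 higher. The covariate fit called 185 of 12244 lower and 68 higher, against 3 lower and 0 higher in the main fit. With single intact embryos only, the adjusted p for Esco2 was 0.199 at a log2 fold change of -0.87 ± 0.17 (SE). Index numbers were not balanced in 2C samples, since index group 11 held 3 water and 5 Kdm5b samples and index group 12 held 6 water and 1 Kdm5b sample. Within index group 11, Esco2 ranged from 280.5 to 371 TPM in water and from 90.9 to 203 TPM in Kdm5b samples, without overlap. In index group 12 the Kdm5b sample had 138 TPM, below the 172 to 310 TPM of the 6 water samples. Smc1a did not overlap within index group 11 either (72.6 to 138 TPM in water and 47.5 to 65.6 TPM in Kdm5b samples). The share of all genes that separate in such small subsets, or among single intact embryos, was not counted.

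**Figure D4:**
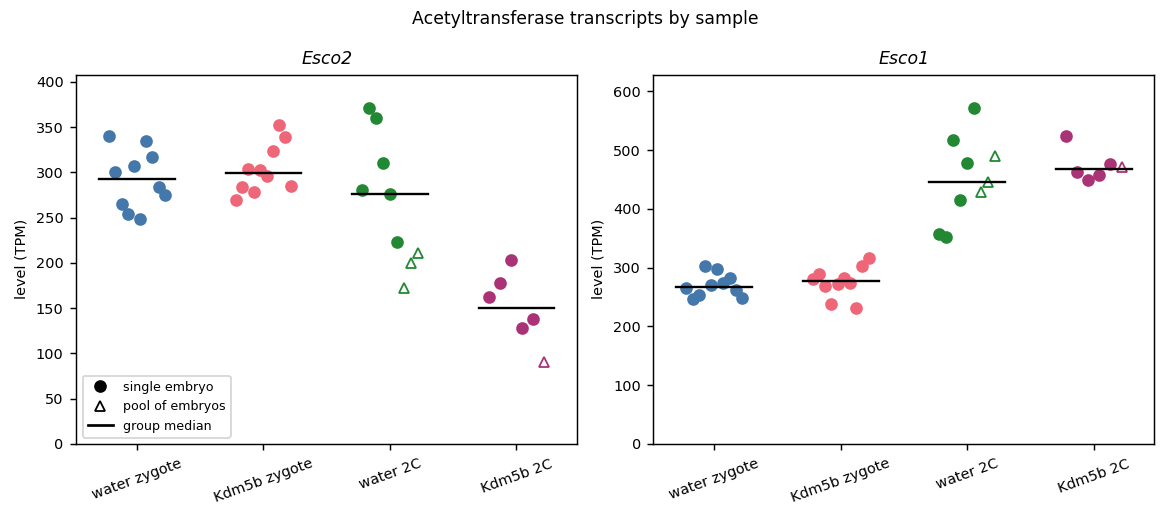
Esco2 and Esco1 level in each sample (vertical axes in TPM from 0, groups on the horizontal axes, filled circles for single zygotes or embryos, open triangles for pools, line at the group median). Esco2 lies at 90.9 to 203 TPM in Kdm5b 2C samples and at 172 to 371 TPM in water 2C samples, whereas the Esco1 ranges of these groups overlap.

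The paralogue Esco1 had a log2 fold change of 0.11 ± 0.11 (SE, edgeR adjusted p = 0.830) in 2C samples, and the ratio of Esco2 to Esco1 transcripts had a median of 0.579 in water (range 0.391 to 1.05) and 0.300 in Kdm5b 2C samples (range 0.193 to 0.453). In zygotes this ratio was 1.11 in water and 1.12 in Kdm5b samples. Wapl ranged from 808.5 to 1146 TPM in Kdm5b 2C samples (median 929.8 TPM), with 3 of 6 above all water 2C samples (log2 fold change 0.30 ± 0.09, SE, edgeR adjusted p = 0.307, and 0.0139 with all 35 samples in a single fit). That single fit called 197 of 13778 genes tested higher and 331 lower by adjusted p alone. The SMC genes again had lower values, at -0.50 ± 0.26 (SE) for Smc3, -0.49 ± 0.23 (SE) for Smc1b and -0.29 ± 0.19 (SE) for Smc1a on the log2 scale, with edgeR adjusted p-values from 0.505 to 0.702. For Sgo2a the log2 fold change was -0.46 ± 0.24 (SE, edgeR adjusted p = 0.569). With the index group as a covariate, the values were -0.76 for Smc1b (edgeR adjusted p = 0.0760), -0.47 for Smc1a (edgeR adjusted p = 0.193) and -0.82 for Sgo2a (edgeR adjusted p = 0.0764), and without water 2C sample 2 that of Smc1a was -0.13. Rec8, Stag3 and Rad21 differed by less than 2 SE, from -0.32 to 0.14 on the log2 scale. Among the 27 other pathway genes none was called by edgeR, by both criteria or by adjusted p alone. By adjusted p alone, 3 of 12244 genes tested were lower and 0 higher. An unadjusted p under 0.05 was found for 3 of the 27 (9.41% of all genes tested). Of these, Haspin, a kinase at centromeres, had the smallest p (log2 fold change -0.55 ± 0.15, SE, edgeR adjusted p = 0.244).

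Whether the difference between Kdm5b and water itself differed between stages was tested as an interaction over all 35 samples. Of the 10 genes, Esco2 passed (interaction -0.86 ± 0.17, SE, log2, edgeR adjusted p = 0.0229), and 0.109% of all genes tested did so. This fit takes 1 variance estimate per gene for both stages. However, the SD of Esco2 was 26.5% (water) and 26.4% (Kdm5b) of its mean in 2C samples, against 11.0% and 8.93% in zygotes. The p-value may therefore be too small, and the fit of 2C samples alone gave Esco2 an edgeR adjusted p of 0.108. In zygotes Esco2 ranged from 248.7 to 340 TPM after water and from 270 to 353 TPM after Kdm5b mRNA, with overlapping ranges and a log2 fold change of 0.06 ± 0.06 (SE, edgeR adjusted p = 0.795), against -0.79 ± 0.17 (SE) in 2C samples. Adjusted p-values were 0.000467 to 0.02295 under the other settings of the fit. The call was lost when Kdm5b 2C sample 4, 5 or 6 was left out (adjusted p = 0.0612, 0.05655 and 0.0553) and held in the other 32 of 35 fits. The p is adjusted over all genes, and since Esco2 was among genes proposed with results of these data known, it is not independent evidence. In addition, the share of Kdm5b counts was 2.30% to 10.45% in Kdm5b zygotes and 8.27% to 15.8% in Kdm5b 2C samples. An effect of stage was not separated from an effect of this share. The other 9 genes had adjusted p-values from 0.268 to 0.991. For Wapl, with the smallest of these, the interaction was 0.28 ± 0.09 (SE, log2). Sgo2a passed only with the index group as a covariate (-0.76, adjusted p = 0.04585), where 277 of 13778 genes tested were lower and 65 higher.

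A final comparison asked whether meiotic subunits changed against their mitotic counterparts after injection. The log2 ratio was taken within each sample from TPM + 0.01, which depends little on library size except for counts near 0, as for Rec8. The ratio of Smc1b to Smc1a was -1.97 ± 0.34 in Kdm5b zygotes (SD, n = 10) and -1.93 ± 0.17 in water zygotes (SD, n = 10), a difference of -0.035 (two-sided permutation test, p = 0.799, adjusted p = 0.799). In 2C samples it was -1.65 ± 0.25 after Kdm5b mRNA (SD, n = 6) and -1.46 ± 0.49 after water (SD, n = 9), with a difference of -0.19 (two-sided exact permutation test, p = 0.414, adjusted p = 0.620). Of the Kdm5b zygotes, 4 of 10 lay below the water mean of this ratio and 6 above it. For Stag3 against Stag1 plus Stag2, Kdm5b minus water was -0.080 in zygotes (two-sided permutation test, p = 0.587, adjusted p = 0.704) and -0.18 in 2C samples (two-sided exact permutation test, p = 0.312, adjusted p = 0.620). For Rec8 against Rad21 it was 1.31 in zygotes (two-sided permutation test, p = 0.378, adjusted p = 0.620) and -0.60 in 2C samples (two-sided exact permutation test, p = 0.382, adjusted p = 0.620). The SD of the Rec8 ratio was 3.80 in water zygotes, since 5 of them had no count, and with 1 TPM added in place of 0.01 the difference in zygotes was 0.0070, while by medians it was 2.45. In 2C samples the difference for Rec8 was -0.17 by medians, -0.088 without Kdm5b 2C sample 1 and -0.92 without Kdm5b 2C sample 5. P-values were adjusted over these 6 comparisons, and none of the 6 differences passed.

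**Figure D5:**
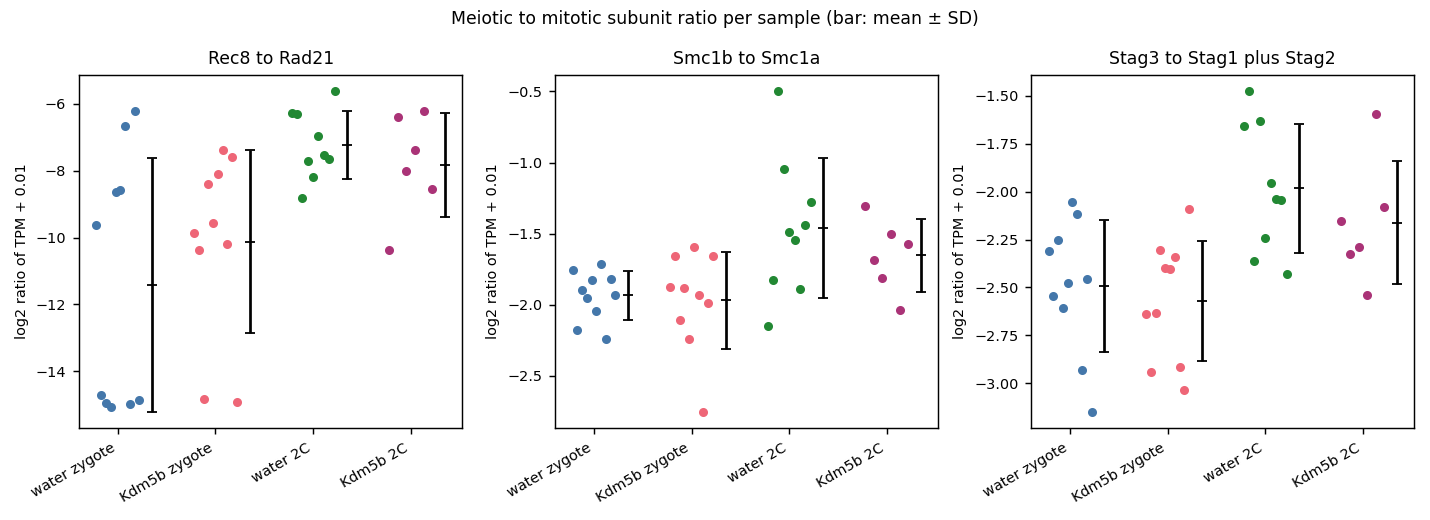
Log2 ratio of the TPM + 0.01 of each meiotic subunit to its mitotic counterpart in every sample (vertical axes, groups on the horizontal axes, 1 point per sample, bars at the mean ± SD). Water and Kdm5b samples overlap at each stage in all 3 ratios, and the Rec8 to Rad21 ratio spreads over more than 8 log2 units in water zygotes.

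Over all 35 samples, the genes whose log2 CPM (counts scaled by library size) were most like those of Rec8 were Ndrg1, Zfp352 and Usp17la (Pearson r = 0.79, 0.77 and 0.77), and those most like Rad21 were Nek1, Rock1 and Diaph3 (r = 0.94, 0.94 and 0.94). These correlations are over 35 samples and 13795 genes, and the samples share stage, library day and depth, so they carry no test.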

How the data were processed

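The authors trimmed reads with fastp 0.21.0, mapped them to GRCm38 with STAR 2.7.3a and counted fragments on RefSeq genes by strand with featureCounts 1.5.1, per the labels and the study's methods. The deposited table holds raw counts and, as another column, exon length for 24480 genes. The deposited repeat table was not used. The 10 genes and the other lists were chosen with earlier results of these data known. Within each list, named genes followed a rule (any pathway gene, by role, and, for other complexes, up to 2 genes in each direction with the largest changes between water stages among those past both thresholds).

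After removal of the Kdm5b row, every comparison was run on the samples of its groups in edgeR 4.0.16 under R 4.3.3 (TMM, filterByExpr with a minimum count of 10, quasi-likelihood test, Benjamini-Hochberg adjustment, thresholds of 0.05 and a log2 fold change of 1). The interaction used all 35 samples. The fits were checked on simulated data. Ratios were compared with permutation tests (exact where a group had under 10 samples, otherwise 100000 resamples) in scipy 1.17.1, with numpy 2.4.6, pandas 2.3.3, Python 3.11.15 and matplotlib 3.10.9. Correlations used log2 CPM with a prior count of 2, computed here. Totals of 8705584 to 17797581 counts set the depth. Zygotes and 2C samples of a group are separate embryos or pools. Alternatives were DESeq2 1.42.0 or its size factors, no filter, at least 50 counts on average, Kdm5b retained, adjusted p alone, a single fit, the replicate block, index groups, single intact embryos, each sample left out and, for ratios, 1 TPM added and medians. Same-numbered samples did not deviate together (no pair had a correlation over 0.1, with 0.0977 as the highest).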

Additional observations from a re-analysis of the deposited data

Results flagged for a closer look

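Smc1a in water zygote 8, at 221 TPM and 3979 counts, stood apart from the other 9 water zygotes, which had 124 to 168 TPM and 2206 to 3645 counts. It was the only such sample among the 40 sets of values examined (10 genes in 4 groups), and chance alone marks about 1 in 20 sets. Without this zygote the log2 fold change of Smc1a between Kdm5b and water zygotes was -0.27 (edgeR adjusted p = 0.202), beside -0.33 with it.

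Esco2 differed between stages in its response to injection, with an interaction of -0.86 on the log2 scale (edgeR adjusted p = 0.0229). The test was of the difference itself, with 1 variance estimate for both stages although Esco2 varied more in 2C samples. Esco2 also had lower values in pools than in single intact embryos of the same group, and pools are found only at the 2C stage. With single intact embryos only, the interaction passed the threshold as well (-0.95, edgeR adjusted p = 0.002498). The share of Kdm5b counts also differed between Kdm5b zygotes and Kdm5b 2C samples, and it was not separated from stage.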

How the results depend on the processing

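The counts of called cohesin genes in Kdm5b against water samples were 0 under every alternative that applied both criteria. The largest log2 fold change among the other settings was -0.97 (Esco2 in 2C samples), so the fold threshold alone gave this 0. Adjusted p alone was passed by Esco2 in 4 of 9 other settings and by Wapl in 1 of 9 in 2C samples. In zygotes Smc1a and Smc1b each passed it in 1 of 8. By adjusted p alone, the number called between stages was 9 in water samples, where 26.8% of all genes tested were higher and 25.4% lower. It was 10 in Kdm5b samples, where 3625 of 12390 genes tested were higher and 3654 lower. The 27 pathway genes gave 7 higher and 11 lower in water samples. Pathway genes called higher numbered 1 with no filter and 1 with the replicate block. In the interaction, the index group as a covariate gave 2 called genes, and leaving out 1 sample gave 0 to 1. With that covariate, 277 of 13778 genes tested were lower and 65 higher, against 14 and 1 in the main fit. Same-numbered samples shared only a number, and in 2C samples the replicate block gave Esco2 an adjusted p of 0.0122 (log2 fold change -0.97). That fit called 19 of 12244 genes tested lower and 0 higher by adjusted p alone.

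The ratio of Smc1b to Smc1a in zygotes changed sign for medians (0.0072) and ranged from -0.077 to 0.052 with 1 sample left out. Some single genes changed sign, none of them past the threshold in its comparison. With single intact embryos these were Rec8 in 2C samples (0.022), Esco2 between water stages (0.11) and, in the interaction, Smc1a (-0.085) and Stag3 (-0.066). The index group turned the interaction of Smc1a (-0.14) and Rec8 (-0.29), and the replicate block that of Rec8 (-0.069) and Stag3 (-0.019). With 1 sample left out, the range was -0.035 to 0.0062 for Rad21 and -0.0041 to 0.030 for Wapl between zygote groups, -0.12 to 0.0095 for Esco2 between water stages, and, in the interaction, -0.0315 to 0.21 for Smc1a, -0.21 to 0.034 for Smc1b, -0.51 to 0.42 for Rec8 and -0.040 to 0.14 for Stag3. The cause was not tested. Depth limits Rec8, which a mean of 50 counts removes.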
